A study of Mus musculus with 12 samples.

Results

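The comparison described here set 5 tumors with a high level of Met RNA against 7 tumors with a lower level, among the 12 tumor libraries of the study. Met encodes a receptor tyrosine kinase. The classes are not the study's own groups: the members were chosen by the measured Met level itself, a library being called Met-high where its log2 CPM (reads scaled to the size of the library) for Met was 10 or more, and Met-low otherwise. The Met-high tumors were untreated 1 and 2, ADI-PEG20 2 and 3, and ADI-PEG20 plus chloroquine 2. The Met-low tumors were ADI-PEG20 plus chloroquine 1 and 3, ADI-PEG20 1, chloroquine 1, 2 and 3, and untreated 3. Since Met chose the classes, Met and the 836 genes of chromosome 6, where it lies, are described without a test, and 15499 of the 16335 genes in the table were compared.

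All tumors came from 1 line, BVMA01R, a mouse sarcoma line of genotype Myf5-Cre;p53-/-;Ass1-/-, and were taken from female C57BL/6J mice, so every group shares these alleles. Myf5 is a transcription factor of muscle progenitors, and its Cre driver directs recombination to that lineage. Ass1 encodes argininosuccinate synthase, without which cells cannot make arginine from citrulline. The study gave 3 tumors each ADI-PEG20 plus chloroquine, ADI-PEG20 alone, chloroquine alone or no treatment. ADI-PEG20 is a pegylated arginine deiminase that removes arginine from blood, and chloroquine blocks the acidification of lysosomes. The mice's ages, the doses and whether each tumor came from its own mouse were not given in the sources used here, so p-values measure the spread between these samples.

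MET is the receptor for hepatocyte growth factor, HGF, which is made as a precursor and cut by proteases before it binds. The active receptor recruits the adaptors GRB2 and GAB1 and signals through the RAS and MAPK cascade, PI3K and STAT3 toward growth, survival and cell movement. The Met gene is present in extra copies in some tumors, often together with its neighbors, and DNA was not measured here.

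Total RNA depleted of ribosomal RNA gave 15501998 to 28410940 reads per library, recovered from the log2 values. ADI-PEG20 1, a Met-low tumor, stood apart: 120 genes had 0 reads there against 7 to 43 in the others, and its skeletal muscle genes were the highest. The noncoding transcript Gm26917 took 22.8% of the reads of ADI-PEG20 1 and 16.4% of those of untreated 2, a Met-high tumor. Elsewhere it took 5.09% to 9.86%. Untreated 1 was the Met-high tumor with the most skeletal muscle RNA. Myf5 was read in every tumor, at 54.4, 40.5, 39.4, 16.3 and 35.9 CPM in the Met-high tumors and at 12.3 to 43.6 CPM (median 27.7) in the Met-low tumors, in the library order used throughout for Met-high tumors: untreated 1, untreated 2, ADI-PEG20 2, ADI-PEG20 3 and ADI-PEG20 plus chloroquine 2. For Met-low tumors the range and median are given.

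Met (chr6:17463800-17573980, plus strand, GRCm38) stood at 2709, 3617, 1297, 1164 and 2505 CPM in the Met-high tumors, against 100.1 to 906 CPM (median 277) in the Met-low tumors. Chloroquine 3, at 906 CPM or 9.82 on the log2 scale, was the library just outside the threshold, and ADI-PEG20 3, at 10.18, was the one just inside it. The levels ran on across the threshold with no wide gap, and chloroquine 2 (862 CPM) and chloroquine 3 were nearer to the 2 ADI-PEG20 Met-high tumors than to the lowest Met-low tumor, ADI-PEG20 1 at 100.1 CPM. No chloroquine tumor was Met-high, so the comparison within treatments rested on the other 3 groups, which held 2 against 1, 2 against 1 and 1 against 2 tumors of each class. Untreated 3, ADI-PEG20 1 and ADI-PEG20 plus chloroquine 2 were each the only tumor of their class in their treatment. Leaving out any of them therefore takes its whole treatment out of the comparison of the 2 classes.

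**Figure D1:**
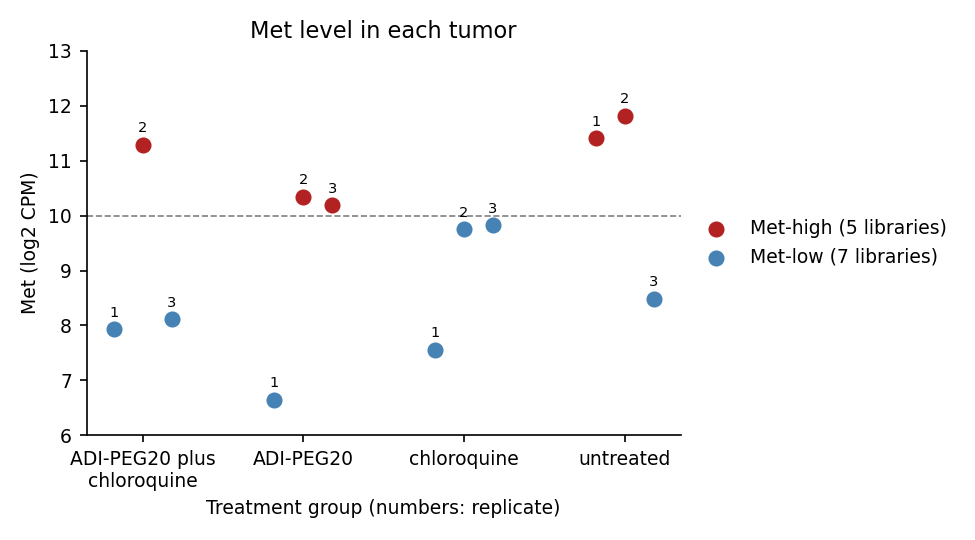
Met level in each of the 12 tumors on the log2 CPM axis, by treatment group, with replicate numbers beside the points and the threshold of 10 as a dashed line. The 5 Met-high tumors (red) lie between 10.18 and 11.82, and chloroquine 2 and 3 lie just under the line.

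The neighbors of Met on chromosome 6 were higher with it as a block. After the treatment group was taken into account, Met differed by 3.34 on the log2 scale between the classes, and 20 genes of the chromosome differed by over 2.5, with a median of 3.38. All 20 lay within 1 Mb of Met. The 799 genes of the chromosome that lie over 5 Mb from Met had a median difference of -0.11. The block ran from Tes, a focal adhesion protein, over Cav2 and Cav1, the caveolins that shape the small pits of the plasma membrane, to Met, Capza2, St7, Wnt2 and Cftr. Cav1 stood at 3348, 5351, 1614, 1156 and 2944 CPM in the Met-high tumors, against 195 to 1101 CPM (median 421) in the Met-low tumors. The classes did not overlap for Cav1, and untreated 2 was the highest. Cftr, the chloride channel mutated in cystic fibrosis, had the largest difference of the chromosome, 6.96 on the log2 scale, from 11.9, 46.1, 18.7, 30.8 and 81.1 CPM in the Met-high tumors, against 0.0319 to 8.1 CPM (median 1.35) in the Met-low tumors. Its lowest library, untreated 3, had 0 reads, so that difference depends on the 0.5 read added before the logarithm. Capza2, a subunit of the actin capping protein, stood at 1162, 2106, 550.0, 819 and 1469 CPM in the Met-high tumors, against 75.7 to 479 CPM (median 199) in the Met-low tumors. The block was not particular to the Met-high class. Chloroquine 2 and 3 lay above the Met-low median by 1.39 and 0.96 on the log2 scale for Cav1. For Capza2 they did so by 1.15 and 1.27, and for Cftr by 2.15 and 2.59. Several short or antisense transcripts within Tes, St7 and Cftr were also higher, and since the strand of the reads was not given in the sources used here, they cannot be told apart from their hosts.

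The edges of the block differed from tumor to tumor. Tes stood at 1721, 94.7, 565, 439 and 1396 CPM in the Met-high tumors, against 38 to 512 CPM (median 62.3) in the Met-low tumors, so untreated 2 was low for Tes although it had the highest Met. Lsm8, 1385 kb beyond the start of Met, stood at 20.8, 350.2, 19.7, 113 and 20.02 CPM in the Met-high tumors, against 10.1 to 39 CPM (median 17.5) in the Met-low tumors, high in untreated 2 and ADI-PEG20 3 only among the 12 tumors. Mdfic, on the other side at -1743 kb, was highest in ADI-PEG20 plus chloroquine 2, at 81, 60.1, 277, 121 and 808 CPM in the Met-high tumors, against 77.4 to 122 CPM (median 85.7) in the Met-low tumors. Cttnbp2, which lies between Cftr and Lsm8 and is low in these tumors, differed by 0.10, and Tfec, between Mdfic and Tes, by -0.19.

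**Figure D2:**
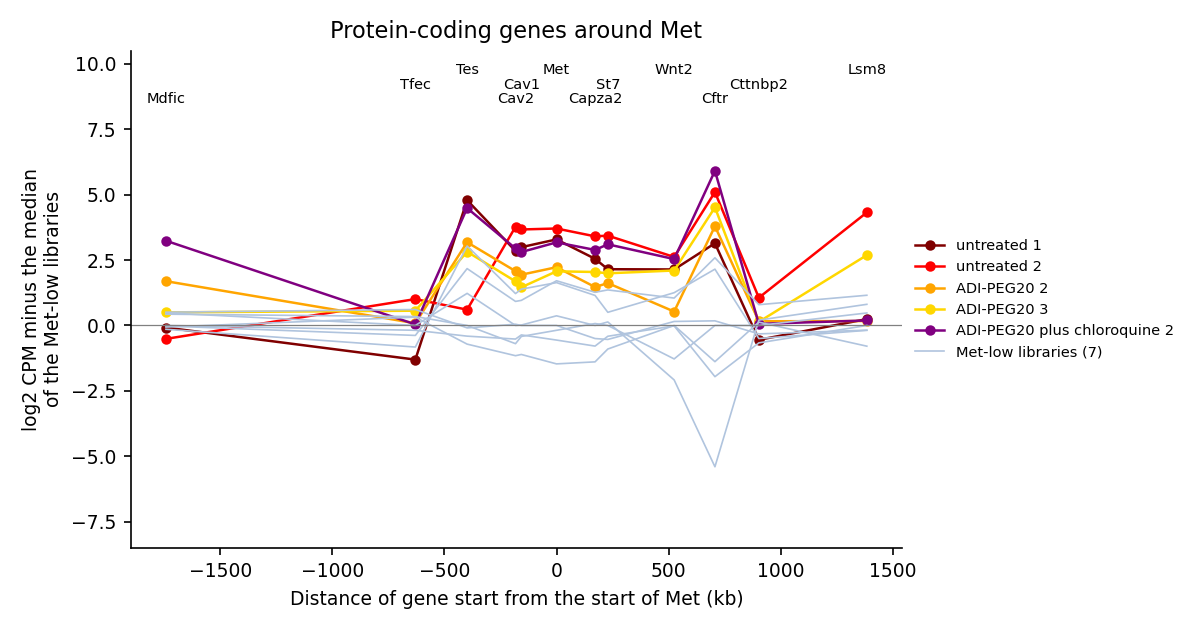
Protein-coding genes within 2 Mb of Met, by the distance of their start from that of Met in kb, with each library's log2 CPM minus the median of the 7 Met-low libraries. The 5 Met-high tumors (colored lines) stand above 0 from Cav2 to Cftr, while at Tes, Lsm8 and Mdfic they part.

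Outside chromosome 6, 0 genes passed between Met-high and Met-low tumors. In limma's test with treatment as a covariate and Benjamini-Hochberg adjustment over 15499 genes (0% called), the smallest adjusted p was 0.11, for Acsbg1 and Pltp. With voom weights on the recovered reads the count was also 0, and without chloroquine 1 it was 13. At an unadjusted p under 0.05, 1003 genes were higher (6.47%) and 1049 lower (6.77%), 13.2% in all, and the median difference of all genes was 0.008 on the log2 scale. Without ADI-PEG20 1 there were 521 higher (3.36%) and 778 lower (5.02%). All Met-high tumors were above all Met-low tumors for 57 genes (0.368%) and below for 38 (0.245%). Within each of the 3 treatments that held both classes they were above for 1120 (7.23%) and below for 1037 (6.69%). With the Met level entered as a number in place of the 2 classes, 48 genes passed (0.31%), of which 28 were higher (0.181%) and 20 lower (0.129%) where Met was higher. All 48 had a difference of the same sign in each of the 3 treatment groups that held both classes. They were chosen by a fit to the same libraries, so the shared sign is no independent support. The count of genes that passed was 15 without ADI-PEG20 1, of which 10 were among the 48. It was 12 and 20 without ADI-PEG20 plus chloroquine 2 and 1, 24 without ADI-PEG20 2, 20 and 22 without chloroquine 1 and 2, 19 without untreated 3 and 77 without untreated 1. Of the 48, 7 passed in all 12 fits that left out 1 library, namely Hmga1, Hmga2, Hmga1b, Acsbg1, Galnt17, Mmp10 and Prl2c2. The count was 9 with the skeletal muscle level as a covariate, all among the 48. With the replicate number as a further term it was 0, in a fit with 5 residual degrees of freedom in place of 7. Slopes below are log2 changes per log2 unit of Met from the fit on its level with treatment as the only covariate. The values of the classes come from the fit with 2 classes, in which no gene passed, and describe where the tumors lay.

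**Figure D3:**
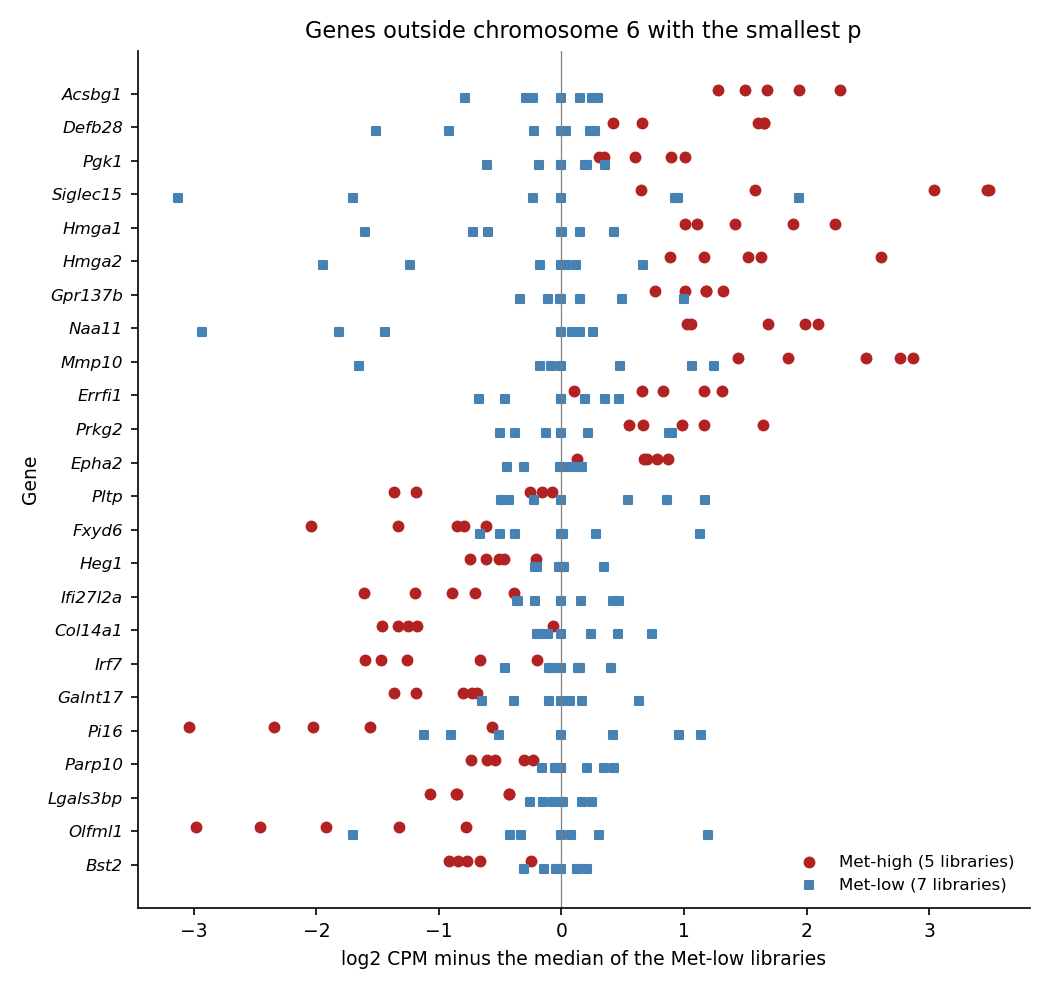
Log2 CPM of the 12 higher and 12 lower genes with the smallest p, minus the median of the Met-low libraries, with Met-high tumors as red circles above the Met-low tumors as blue squares. The 2 classes do not overlap for Acsbg1, Defb28, Hmga1, Hmga2, Naa11, Mmp10, Ifi27l2a, Galnt17, Parp10 and Lgals3bp.

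Hmga1 and Hmga2 encode small chromatin proteins that bend DNA and are active mainly in embryos and tumors, and both rose with Met in the fit on its level. Hmga2 (chr10) stood at 129.6, 121, 94.2, 77.8 and 256 CPM in the Met-high tumors, against 10.9 to 66.8 CPM (median 42) in the Met-low tumors. Its classes did not overlap, and ADI-PEG20 plus chloroquine 2 was the highest. The difference was 2.18 (SE 0.41) on the log2 scale, and the slope was 0.70 with an adjusted p of 0.000318 in limma. Hmga1 (chr17) stood at 347, 758, 429.5, 325 and 596 CPM in the Met-high tumors, against 52.9 to 217 CPM (median 161) in the Met-low tumors. Every Met-high tumor was above every Met-low tumor, with a difference of 2.03 (SE 0.37), a slope of 0.64 and a limma adjusted p of 0.000318. The near-identical copy Hmga1b (chr11), whose slope was 0.66, can share reads with Hmga1, so the split between the 2 is uncertain. Hmga2 and Hmga1 had the 2 smallest adjusted p-values of that fit. Among the Met-low tumors, chloroquine 2, the second highest of them in Met, had the most Hmga1 and Hmga2 RNA, 217 and 66.8 CPM, while chloroquine 3, the highest in Met, had 179 and 43.2 CPM.

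**Figure D4:**
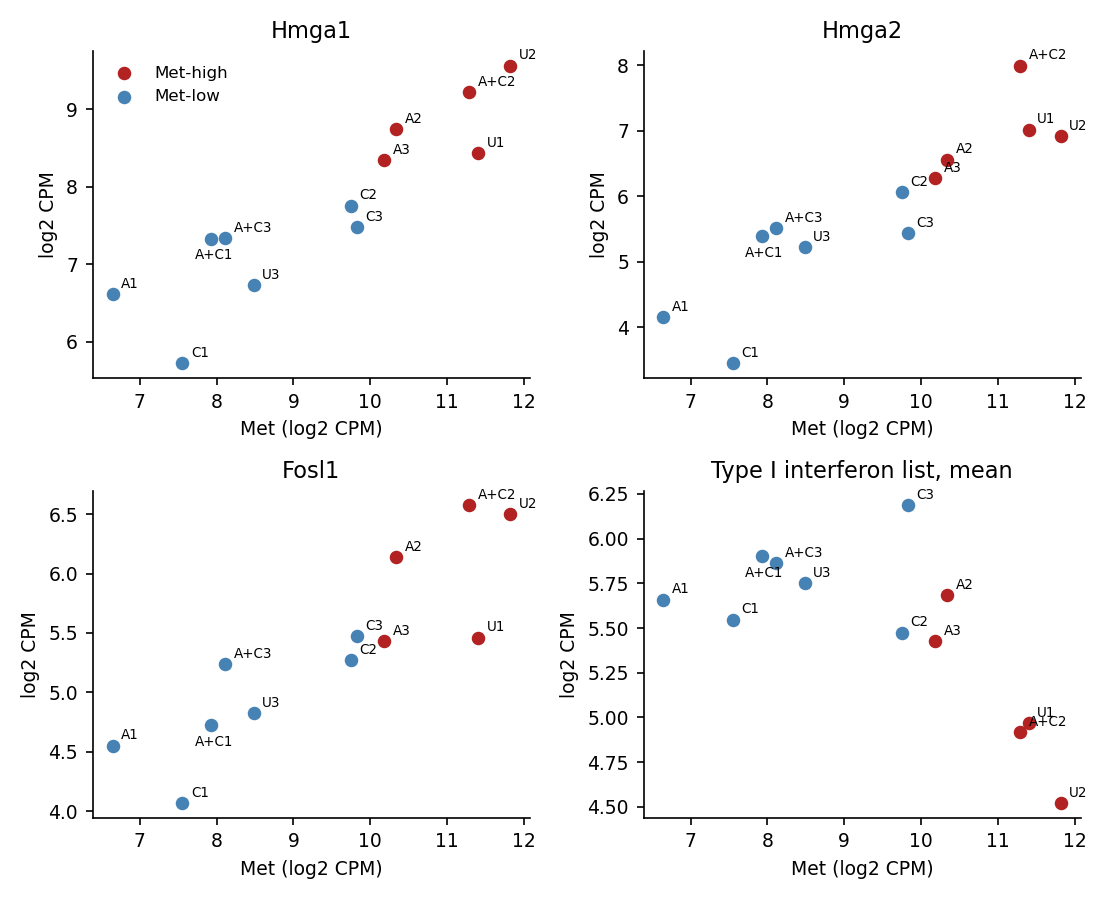
Log2 CPM of Hmga1, Hmga2 and Fosl1 and the mean log2 CPM of the 29 type I interferon genes against Met in each tumor (U untreated, C chloroquine, A ADI-PEG20, A+C both; red Met-high, blue Met-low). The 3 genes run upward with Met, and the interferon mean is lowest in untreated 2, ADI-PEG20 plus chloroquine 2 and untreated 1, at 4.52, 4.92 and 4.97.

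Other genes that were higher encode enzymes, a protease and signaling proteins. Acsbg1, an acyl-CoA synthetase for long fatty acids, stood at 11.3, 17.1, 8.58, 9.99 and 13.6 CPM in the Met-high tumors, against 2.06 to 4.37 CPM (median 3.55) in the Met-low tumors, without overlap, and differed by 1.78 (SE 0.26). Mmp10, the secreted protease stromelysin-2, stood at 27.6, 25.6, 10.2, 13.6 and 21.1 CPM in the Met-high tumors, against 1.2 to 8.94 CPM (median 3.77) in the Met-low tumors. It too did not overlap, and its slope was 0.52 with a limma adjusted p of 0.00459. Pgk1, the glycolytic phosphoglycerate kinase, stood at 617, 572, 379, 390.5 and 465 CPM in the Met-high tumors, against 201 to 392 CPM (median 307) in the Met-low tumors, where chloroquine 2 overlapped with the 2 ADI-PEG20 tumors of the Met-high class. Errfi1, an inhibitor of the EGF receptor kinase, stood at 332, 264, 235, 159.8 and 369 CPM in the Met-high tumors, against 93.4 to 206 CPM (median 149) in the Met-low tumors. ADI-PEG20 3 lay among the Met-low tumors for Errfi1, and the other Met-high tumors lay above all of them. Prkg2, a cGMP-dependent kinase, differed by 0.91 (SE 0.18) and the lysosomal membrane protein Gpr137b by 0.83 (SE 0.16). Defb28, a defensin, and Naa11, a protein N-terminal acetyltransferase, were low in all tumors, with at most 3.22 and 6.49 CPM, and differed by 2.11 (SE 0.36) and 2.83 (SE 0.54). Siglec15, a lectin for sialic acid, reached 3.9 CPM and differed by 3.59 (SE 0.63), with overlap between the classes. All of these but Defb28 passed with the Met level as a number. With 1 library left out, Errfi1 passed in 8 of 12 fits, Siglec15 and Naa11 in 7 of 12, Gpr137b in 5 of 12, and Pgk1 and Prkg2 in 4 of 12.

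The window of Mmp10 around its start, from RefSeq on GRCm38.p6, is shown because the classes did not overlap for Mmp10 and its window holds a motif of AP-1, the factor of which Fosl1 is a subunit. It runs from 250 bases before the start to 50 after it, 5′ to 3′, and the capitals mark the AP-1 motif TGANTCA, searched on both strands.
Mmp10 (chr9:7502092-7502391, plus strand): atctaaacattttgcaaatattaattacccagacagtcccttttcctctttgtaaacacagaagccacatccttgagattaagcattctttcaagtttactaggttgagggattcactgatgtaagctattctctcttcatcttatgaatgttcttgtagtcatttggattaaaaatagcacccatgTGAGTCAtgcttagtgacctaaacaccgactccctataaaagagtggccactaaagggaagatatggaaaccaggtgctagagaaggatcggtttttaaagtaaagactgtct
The motif lay in 7.81% of all 32851 promoter windows and, counted by gene, in 8.97% of all 27025 genes with a window. It lay in 1 of the 9 matched genes among the 12 higher ones, Mmp10 itself, and in 0 of the 16 matched genes of the MAPK output list.

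Of the 12 lower genes, 5 passed with the Met level as a number. Pltp, the phospholipid transfer protein, stood at 14.2, 16.1, 32.8, 34.7 and 30.8 CPM in the Met-high tumors, against 26.1 to 82.8 CPM (median 36.7) in the Met-low tumors. Its classes overlapped across treatments, while within each of the 3 treatments the Met-high tumors were below, as in 6.69% of all genes, and the difference was -1.03 (SE 0.15). Col14a1, a collagen that sits on collagen fibrils, stood at 75.7, 65.2, 71.3, 171 and 79.6 CPM in the Met-high tumors, against 157 to 300.0 CPM (median 180.0) in the Met-low tumors, with ADI-PEG20 3 alone of the Met-high tumors at the Met-low level. Galnt17, of the family of enzymes that attach sugars to mucins, stood at 49.6, 35.2, 46, 48.5 and 31.1 CPM in the Met-high tumors, against 51.2 to 125 CPM (median 80.2) in the Met-low tumors, without overlap, and its slope was -0.28 with a limma adjusted p of 0.00459. Heg1, a membrane protein needed for heart and vessel development, differed by -0.67 (SE 0.12), and Olfml1, a secreted olfactomedin-like protein at 5.04 CPM or less, by -2.47 (SE 0.47). With 1 library left out, Col14a1 passed in 8 of 12 fits, and Heg1, Olfml1 and Pltp in 4 of 12. Fxyd6, a regulator of the sodium pump, differed by -1.47 (SE 0.25). Pi16, a peptidase inhibitor found in fibroblasts, differed by -2.26 (SE 0.41). Lgals3bp, a secreted partner of galectin-3, stood at 116, 99.5, 156, 155 and 115 CPM in the Met-high tumors, against 175 to 249 CPM (median 209.7) in the Met-low tumors, without overlap. Parp10, an ADP-ribosyltransferase, differed by -0.64 (SE 0.12), and the interferon genes Irf7, Bst2 and Ifi27l2a are given with their group.

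The 48 genes that passed with the Met level as a number also hold the following, named because they passed there. Among those higher with Met were the inhibitor of plasminogen activators Serpinb2 (slope 0.94), the prolactin family member Prl2c2 (0.78), the laminin receptor subunit Itga6 (0.26), galectin-3 Lgals3 (0.28), the uridine phosphorylase Upp1 (0.45), the RNA-binding protein Igf2bp2 (0.38) and the TNF receptor family member Tnfrsf9 (0.41). Lgals3 averaged 8.23 ± 0.24 log2 CPM in Met-high and 7.34 ± 0.42 log2 CPM in Met-low tumors (SD, n = 5 and 7). Itga6 averaged 8.08 ± 0.26 log2 CPM in Met-high and 7.35 ± 0.32 log2 CPM in Met-low tumors, without overlap. Among those lower with Met were the growth factor Igf1 (-0.25), the glutathione peroxidase Gpx3 (-0.39), the pyruvate carboxylase Pcx (-0.30), the calcium channel Cacna1g (-0.36), the guidance receptor Robo1 (-0.27), the guidance cue Sema3d (-0.38) and the elastic fiber protein Emilin1 (-0.21). Igf1 averaged 4.97 ± 0.20 log2 CPM in Met-high and 5.65 ± 0.34 log2 CPM in Met-low tumors, without overlap. With 1 library left out, Itga6 and Serpinb2 passed in 11 of 12 fits, Upp1 and Cacna1g in 10 of 12, Gpx3 in 9 of 12, Igf1 in 8 of 12, Pcx in 6 of 12, Lgals3, Tnfrsf9 and Robo1 in 5 of 12, and Igf2bp2, Sema3d and Emilin1 in 3 of 12. Their adjusted p in limma ranged from 0.00459 for Prl2c2 to 0.0434 for Igf2bp2.

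Of the 587 list members measured outside chromosome 6, from 34 gene lists, 0 passed between the classes, so the lists are given by their counts at an unadjusted p under 0.05, against 6.47% of all genes higher and 6.77% lower, and by their median difference, against 0.008 for all genes. Without ADI-PEG20 1, the library that stood apart, many list counts and medians differed, and list counts given without it are to be read against 3.36% higher and 5.02% lower. ADI-PEG20 1 was also the only Met-low tumor given ADI-PEG20 alone. The values without it therefore compare the classes within untreated and ADI-PEG20 plus chloroquine tumors only. Changes in cell number and in RNA per cell cannot be told apart in such bulk samples.

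**Figure D5:**
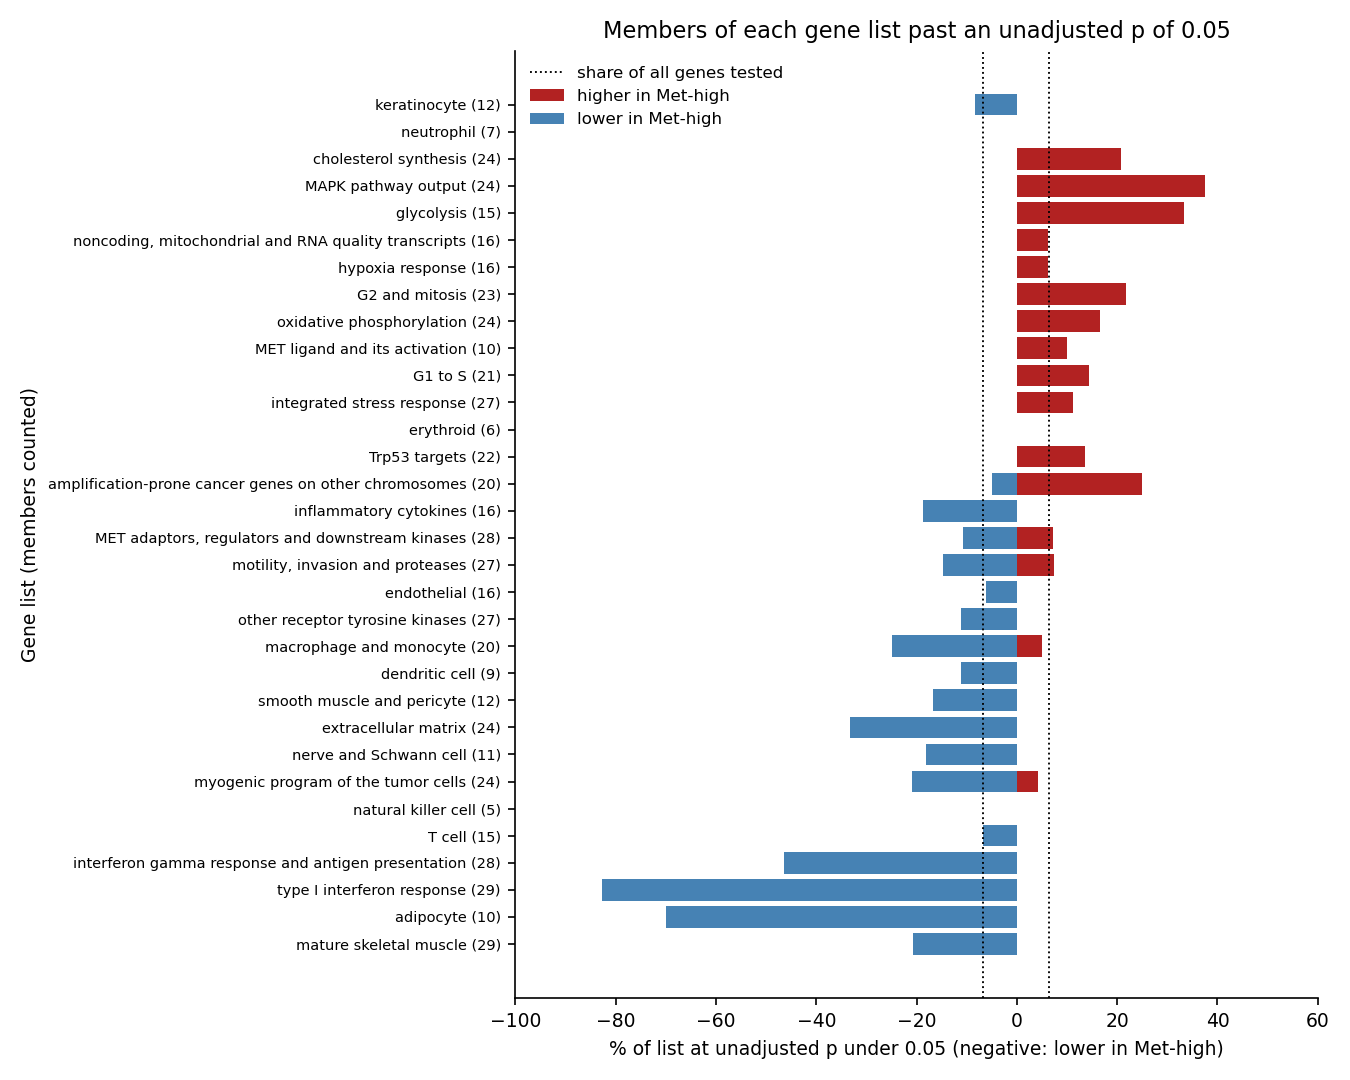
Share of each gene list's members with an unadjusted p under 0.05, higher (red, to the right) or lower (blue, to the left) in Met-high tumors, for lists with 5 or more members counted, which are in parentheses. Dotted lines mark the shares of all genes tested, 6.47% and 6.77%, and the type I interferon list reaches furthest to the left.

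The list of the ligand of MET and the proteins that activate it had 1 member at p under 0.05, and 0 without ADI-PEG20 1. Hgf averaged 2.81 ± 0.67 log2 CPM in Met-high and 2.67 ± 0.46 log2 CPM in Met-low tumors, a difference of 0.16 (SE 0.37), and was read at a low level in both. Of the 10 members measured, 7 were higher, and 1 had a p under 0.05, the urokinase receptor Plaur at 0.41 (SE 0.18), with a limma adjusted p of 0.35. Urokinase itself, Plau, one of the proteases that can cut HGF, differed by 0.16 (SE 0.16), the protease hepsin, Hpn, by -0.96 (SE 0.57) and the inhibitor of such proteases Spint1 by 0.27 (SE 0.35). Among adaptors, regulators and kinases downstream of MET, 13 of 28 were higher, with a median of -0.03. There 2 were higher at p under 0.05, Errfi1 and Cd44, a surface protein that can act as a co-receptor, at 0.53 (SE 0.15). The 3 lower ones included the plexin ligand Sema4d at -0.66 (SE 0.26) and the transcription factor Stat3 at -0.31 (SE 0.13). Grb2 differed by -0.04 (SE 0.11) and Gab1 by -0.47 (SE 0.22).

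Genes known to follow MAPK signaling were mostly higher in Met-high tumors: 19 of 24, with 9 at p under 0.05 higher and 0 lower, 37.5% against the background of 6.47%, and a median of 0.31. The transcription factor Fosl1, a subunit of AP-1, stood at 44.1, 90.6, 70.6, 43.2 and 95.2 CPM in the Met-high tumors, against 16.8 to 44.4 CPM (median 28.3) in the Met-low tumors. Untreated 1 and ADI-PEG20 3 lay at the level of chloroquine 3, the highest Met-low tumor, and the other 3 lay above. Its difference was 1.33 (SE 0.31), and its slope 0.43 with a limma adjusted p of 0.0116, passing in 11 of 12 fits with 1 library left out. The ephrin receptor Epha2, at 172, 183, 162, 109 and 159.5 CPM in the Met-high tumors, against 73.8 to 113 CPM (median 100.3) in the Met-low tumors, was the other member that passed with the Met level as a number, in 6 of 12 such fits. Myc, the growth-promoting transcription factor, stood at 141, 183, 191, 122 and 179.7 CPM in the Met-high tumors, against 93.1 to 127 CPM (median 119) in the Met-low tumors, where ADI-PEG20 3 lay among the Met-low tumors. Cyclin D1, Ccnd1, differed by 0.45 (SE 0.16), and the phosphatases Dusp4, Dusp5 and Dusp6, which feed back on the kinases, by 0.98 (SE 0.35), 0.88 (SE 0.36) and 0.44 (SE 0.16). The feedback inhibitors Spry2 and Spry4 differed by 0.23 (SE 0.19) and 0.24 (SE 0.23), Spry1 by -0.26 (SE 0.28), and Fos and Egr1 by 0.12 (SE 0.54) and 0.32 (SE 0.31). The mean of the list was 5.27, 5.82, 5.22, 5.19 and 5.57 log2 CPM in the Met-high tumors, against 4.64 to 5.32 (median 5.08) in the Met-low tumors. Without ADI-PEG20 plus chloroquine 2, 4 of the 24 had a p under 0.05, with a median of 0.30. Without untreated 2 the median was 0.20, and without ADI-PEG20 1 it was 0.43.

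Of the other receptor tyrosine kinases, 19 of 27 were lower, with a median of -0.16 and 3 lower at p under 0.05. These were the neurotrophin receptor Ntrk2 at -1.88 (SE 0.41), the EGF receptor Egfr at -0.53 (SE 0.13) and the collagen receptor Ddr1 at -0.47 (SE 0.17). Without ADI-PEG20 1, 18 of 27 were lower, 2 of them at that p, with a median of -0.15. Epha2, also a receptor tyrosine kinase and higher as given above, was counted in the MAPK output list and not in this one. Egfr stood at 67.7, 63.4, 61.5, 85.4 and 66.6 CPM in the Met-high tumors, against 82.5 to 109.9 CPM (median 95.9) in the Met-low tumors, where ADI-PEG20 3 alone overlapped with the Met-low tumors. Of genes of motility, invasion and proteolysis, 18 of 27 were lower, with a median of -0.09, against 13 of 27 and 0.02 without ADI-PEG20 1. The macrophage elastase Mmp12 differed by 1.06 (SE 0.28), and the protease inhibitors Timp2 and Timp3 were lower at p under 0.05, at -0.39 (SE 0.15) and -0.63 (SE 0.23).

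Genes induced by type I interferon were lower in Met-high tumors in 29 of 29 members. At p under 0.05, 24 were lower and 0 higher, 82.8% against the background of 6.77%, with a median of -0.64, and none passed with adjustment over all genes or with the Met level as a number. Irf7, the transcription factor that amplifies the response, stood at 52, 56.9, 138, 100.1 and 66.2 CPM in the Met-high tumors, against 115 to 209.6 CPM (median 158) in the Met-low tumors. ADI-PEG20 2 lay among the Met-low tumors for Irf7, and the difference was -1.11 (SE 0.20), with a limma adjusted p of 0.13. Bst2, tetherin, which holds budding virus at the cell surface, stood at 117, 124, 177, 133 and 112 CPM in the Met-high tumors, against 170.4 to 243 CPM (median 211) in the Met-low tumors, again with ADI-PEG20 2 the highest Met-high tumor. The classes did not overlap for Oas2, an enzyme that activates RNA decay, at 15.6, 9.05, 34, 29.8 and 23.1 CPM in the Met-high tumors, against 35.1 to 67.5 CPM (median 40.4) in the Met-low tumors. Neither did they for Stat2, a subunit of the factor that drives these genes, at 68.4, 44.6, 94.2, 86.4 and 57.6 CPM in the Met-high tumors, against 96.5 to 156 CPM (median 102) in the Met-low tumors. The differences were -1.17 (SE 0.23) and -0.85 (SE 0.18). Ifi27l2a, an interferon-induced membrane protein among the 12 lower genes, stood at 11.7, 7.09, 13.3, 16.6 and 9.48 CPM in the Met-high tumors, against 16.8 to 29.98 CPM (median 21.7) in the Met-low tumors, without overlap. Oas1a and Oas1g, at -0.68 (SE 0.24) and -1.08 (SE 0.32), belong to a family of close copies that can share reads. The smallest differences of the list were -0.38 (SE 0.21) for Rtp4 and -0.43 (SE 0.14) for Irf9.

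The mean of the type I list was 4.97, 4.52, 5.68, 5.43 and 4.92 log2 CPM in the Met-high tumors, against 5.47 to 6.18 (median 5.75) in the Met-low tumors. The 2 untreated Met-high tumors and ADI-PEG20 plus chloroquine 2 were below all others, and the 2 ADI-PEG20 tumors lay within the Met-low range or just under it. ADI-PEG20 1, the Met-low tumor of their treatment, lay between these 2 at 5.66. Within each of the 3 treatments the Met-high tumors were below for 15 of the 29 members, against 6.69% of all genes. Without ADI-PEG20 1 all 29 had a p under 0.05, with a median of -0.96, and without untreated 3 or without ADI-PEG20 plus chloroquine 2 there were 11, with medians of -0.46 and -0.53. With the skeletal muscle level as a covariate there were 23. Macrophage markers were lower in 13 of 20, with 5 lower and 1 higher at p under 0.05. Without ADI-PEG20 1, 15 of 20 were lower, 5 of them at that p. The macrophage markers summed to 2211 to 3594 CPM in Met-high and 2213 to 4052 CPM in Met-low tumors, and their part in the result was not tested.

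The windows of Stat2 and Bst2, from RefSeq on GRCm38.p6, are shown because both genes were among the 4 type I interferon members with the smallest p and both windows hold a motif of interferon response elements. The capitals mark the motif GAAANNGAAA, searched on both strands, and in Bst2 a pair of overlapping matches forms 1 stretch.
Stat2 (chr10:128270248-128270547, plus strand): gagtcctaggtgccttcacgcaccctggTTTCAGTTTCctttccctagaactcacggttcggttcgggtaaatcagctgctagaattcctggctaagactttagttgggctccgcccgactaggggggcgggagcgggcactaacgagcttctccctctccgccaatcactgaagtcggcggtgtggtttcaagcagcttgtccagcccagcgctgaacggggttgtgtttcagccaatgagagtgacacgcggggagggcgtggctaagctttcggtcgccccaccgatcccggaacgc
Bst2 (chr8:71537423-71537722, minus strand): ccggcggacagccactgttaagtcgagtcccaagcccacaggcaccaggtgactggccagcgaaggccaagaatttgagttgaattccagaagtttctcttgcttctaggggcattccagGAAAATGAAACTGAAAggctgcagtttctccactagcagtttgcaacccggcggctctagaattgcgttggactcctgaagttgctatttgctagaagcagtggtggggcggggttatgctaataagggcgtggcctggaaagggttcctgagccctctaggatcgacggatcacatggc
This motif lay in 3.44% of all promoter windows. Counted by gene, it lay in 3.99% of all 27025 genes with a window and in 11 of the 20 type I members with a window. It lay in 0 of the 16 matched MAPK output genes.

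Genes of the interferon gamma response and antigen presentation were lower in 27 of 28 members, with 13 lower and 0 higher at p under 0.05 and a median of -0.60. The leading member was Tapbp, which loads peptides on MHC class I, at 179.9, 215, 230.4, 238 and 146 CPM in the Met-high tumors, against 226 to 342 CPM (median 292) in the Met-low tumors, with ADI-PEG20 2 and 3 just inside the Met-low range. The T cell attractants Cxcl10 and Cxcl9 differed by -0.81 (SE 0.24) and -0.82 (SE 0.32), the peptide transporters Tap1 and Tap2 by -0.79 (SE 0.27) and -0.82 (SE 0.26), and Nlrc5, the activator of MHC class I genes, by -0.90 (SE 0.30). The MHC class I genes H2-K1 and H2-D1, close copies that can share reads, differed by -0.68 (SE 0.30) and -0.57 (SE 0.26), while their partner B2m differed by 0.08 (SE 0.31). The list mean was 5.13, 4.96, 6.30, 6.46 and 5.50 log2 CPM in the Met-high tumors, against 5.64 to 6.72 (median 6.21) in the Met-low tumors, so ADI-PEG20 2 and 3 lay within the Met-low range. Both lay above ADI-PEG20 1, the Met-low tumor of their treatment, at 6.27, so the list mean was not lower in Met-high tumors within that treatment. The count at p under 0.05 was 22 without ADI-PEG20 1, with a median of -0.95, 6 without untreated 3, with a median of -0.38, 4 without ADI-PEG20 plus chloroquine 2 and 7 without ADI-PEG20 plus chloroquine 3. T cell markers, lower in 13 of 15 with a median of -0.57, against -0.37 without ADI-PEG20 1, summed to 70.2 to 98.1 CPM in Met-high and 82.2 to 122 CPM in Met-low tumors, with Cd3g at 0 reads in 1 library, and natural killer markers to 3.87 to 9.06 CPM in Met-high and 4.41 to 11 CPM in Met-low tumors. Their part in the result was not tested.

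Glycolysis was higher in 13 of 15, with 5 at p under 0.05 and a median of 0.28, the enolase Eno1 at 0.50 (SE 0.15) and the pyruvate kinase Pkm at 0.41 (SE 0.14) among them, and Pgk1 passed with the Met level as a number. The list mean was 7.32, 7.54, 6.70, 6.84 and 6.93 log2 CPM in the Met-high tumors, against 6.61 to 6.99 (median 6.79) in the Met-low tumors. Only untreated 1 and untreated 2 lay above the Met-low range. Cholesterol synthesis was higher in 21 of 24, with 5 at p under 0.05 and a median of 0.35. Without ADI-PEG20 1, 17 of 24 cholesterol genes were higher, 1 at p under 0.05, with a median of 0.14, and 13 of 15 glycolysis genes, 6 at p under 0.05, with a median of 0.44. The squalene enzymes Fdft1 and Sqle differed by 0.66 (SE 0.22) and 0.54 (SE 0.19). Oxidative phosphorylation was higher in 22 of 24, with a median of 0.21 and 4 at p under 0.05, the complex I subunit Ndufs3 leading at 0.34 (SE 0.12), and without ADI-PEG20 1 only 1 member had such a p. Genes of G2 and mitosis were higher in 18 of 23 and those of G1 to S in 18 of 21, with 5 and 3 at p under 0.05 and medians of 0.22 and 0.11. Without ADI-PEG20 1 these numbers were 0 and 1, with 15 of 23 and 11 of 21 higher and medians of 0.09 and 0.02. The cytokinesis protein Anln differed by 0.62 (SE 0.20) and the kinase Cdk1 by 0.59 (SE 0.19), while the proliferation marker Mki67 differed by -0.03 (SE 0.19). The hypoxia response was higher in 14 of 16, with 1 at p under 0.05, the mitophagy receptor Bnip3 at 0.74 (SE 0.26); without ADI-PEG20 1, 15 of 16 were higher, 0 at p under 0.05, and 1 was lower at that p. The integrated stress response, the program induced by shortage of amino acids, was higher in 16 of 27 with a median of 0.06. Of these, 3 had a p under 0.05. Without ADI-PEG20 1, 18 of 27 were higher, 2 of them at that p, with a median of 0.06. Atf4, the transcription factor of the program, differed by 0.26 (SE 0.11) and the serine synthesis enzyme Phgdh by 0.41 (SE 0.14).

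The extracellular matrix list was lower in 21 of 24, with 8 lower and 0 higher at p under 0.05 (33.3%) and a median of -0.33. Without ADI-PEG20 1, 20 of 24 were lower, 2 of them at p under 0.05, with a median of -0.37. Sparc, a collagen-binding glycoprotein, stood at 2941, 3359.6, 2828, 3816 and 2499 CPM in the Met-high tumors, against 3187 to 5769 CPM (median 4029) in the Met-low tumors. ADI-PEG20 3 and untreated 2 lay within the Met-low range for Sparc. Elastin, Eln, differed by -1.73 (SE 0.50), and the collagen genes Col6a2 and Col5a1 by -0.63 (SE 0.20) and -0.72 (SE 0.24). The list of the myogenic program of the tumor cells was lower in 19 of 24, 5 of them at p under 0.05, and in 17 of 24 without ADI-PEG20 1, 3 of them at that p. The imprinted noncoding RNAs H19 and Meg3 differed by -1.89 (SE 0.44) and -1.07 (SE 0.31), while Myf5 was on the higher side at 0.80 (SE 0.26). H19 stood at 50.1, 10.2, 15.3, 29.3 and 8.03 CPM in the Met-high tumors, against 20.1 to 121 CPM (median 63.7) in the Met-low tumors, with untreated 1 and ADI-PEG20 3 inside the Met-low range.

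Markers of other cell types differed in part between the classes. Mature skeletal muscle was lower in 28 of 29, with a median of -1.49 and 6 at p under 0.05, and summed to 587 to 7208 CPM in Met-high and 866 to 9659 CPM in Met-low tumors, with Myoz1 at 0 reads in 3 libraries. Its list mean was 5.47, 2.01, 2.92, 1.95 and 2.16 log2 CPM in the Met-high tumors, against 1.30 to 6.40 (median 4.39) in the Met-low tumors, so untreated 1 stood apart in its class. Without ADI-PEG20 1, 19 of 29 muscle genes were lower, with a median of -0.26, 1 lower and 1 higher at p under 0.05. Adipocyte markers were lower in 10 of 10, 7 of them at p under 0.05, and summed to 164 to 218 CPM in Met-high and 125 to 780.3 CPM in Met-low tumors. The adipocyte hormone Adipoq stood at 0.659, 0.399, 0.272, 1.41 and 0.492 CPM in the Met-high tumors, against 0.21 to 10.8 CPM (median 1.02) in the Met-low tumors, and ADI-PEG20 1 was the highest. Without it 2 adipocyte markers had a p under 0.05, and the median was -0.52 in place of -1.01. Smooth muscle and pericyte markers were lower in 11 of 12 and endothelial markers in 11 of 16, with 2 and 1 at p under 0.05. They summed to 2219 to 3909.6 CPM in Met-high and 2851 to 3984 CPM in Met-low tumors and to 563 to 1059 CPM in Met-high and 604 to 845 CPM in Met-low tumors. Without ADI-PEG20 1, 7 of 12 and 11 of 16 were lower, 1 and 2 of them at p under 0.05. Nerve and Schwann cell markers were lower in 8 of 11, and dendritic cell markers in 6 of 9, 2 and 1 of them at p under 0.05. Without ADI-PEG20 1, 7 of 11 and 6 of 9 were lower, 0 and 1 of them at that p, and the dendritic median was -0.45 in place of -0.21. The neutrophil, mast cell and erythroid lists had 0 members at p under 0.05 in either direction and were higher in 4 of 7, 2 of 4 and 3 of 6. Without ADI-PEG20 1 they were higher in 3 of 7, 1 of 4 and 5 of 6, and the neutrophil and erythroid medians were -0.31 and 0.87, in place of 0.49 and 0.04. B and plasma cell markers were lower in 3 of 4, the immunoglobulin gene Ighm among them at -1.49 (SE 0.35), natural killer markers in 4 of 5, and keratinocyte markers were higher in 8 of 12, Krt6a at 0 reads in 7 libraries. Without ADI-PEG20 1 the medians of the B and plasma cell, natural killer and keratinocyte lists were -1.12, -1.17 and 0.34, in place of -0.45, -0.55 and 0.77. Noncoding, mitochondrial and RNA quality transcripts were higher in 11 of 16, with a median of 0.26, against 0.09 without ADI-PEG20 1. The part of these cell types in the other results was not tested beyond the muscle covariate given above.

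Whether the difference between the classes was the same in untreated, ADI-PEG20 and doubly treated tumors was tested over the same genes. With limma, 0 genes passed, also with library quality weights, with a smallest adjusted p of 0.17, and 1423 had an unadjusted p under 0.05 (9.18%). Each class held 1 or 2 tumors in each of these treatments. For Hmga2 the difference was 2.54 in doubly treated, 2.26 in ADI-PEG20 and 1.75 in untreated tumors, and for Irf7 it was -1.33, -0.57 and -1.44. For Fosl1 it was 1.59, 1.23 and 1.16, so the sign was shared in all 3 treatments for each of these genes. They were named from fits to the same tumors, so the shared sign is no independent support. The mean of the type I interferon list did not separate the classes in ADI-PEG20 tumors. It was 5.68 and 5.43 log2 CPM in the Met-high tumors of that treatment and 5.66 in the Met-low tumor.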

How the data were processed

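RNA was measured in 12 tumor libraries. The submitters' processing notes list limma, edgeR, Salmon 0.8.2, featureCounts 1.4.6-p5 (Subread), STAR 2.5.1a and bcl2fastq, with the build mm10 and no roles. The authors deposited log2 CPM per library in a table of 16386 lines, of which 51 repeat a gene and were dropped. From the values, each is log2 of the reads plus 0.5, scaled to CPM by an effective library size (12590137 to 31280299). Reads were recovered from these steps, and 100% of values under 2000 reads came out within 0.02 of a whole number. The lowest gene total was 85 reads, so low genes were already filtered. CPM values include the added 0.5 read. Pathway tables were not used.

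The Met classes, members and gene lists were chosen with earlier results of these data known, so no list is independent support. limma 3.58.1 (R 4.3.3) was fitted to the log2 CPM of all 12 libraries with treatment and Met class as terms, a trend in expression and Benjamini-Hochberg adjustment over 15499 genes at 0.05, two-sided. A second fit gave each treatment its own Met term. Of the fits, only that with treatment and Met class as terms was tested on simulated data. Positions came from GENCODE vM21. Libraries of a group differed by more than sampling noise (chi-square per degree of freedom of at least 20.62), so none was merged. Named are the 12 higher and 12 lower genes with the smallest p, the 4 members with the smallest p of each list, and on chromosome 6 the largest differences and nearest neighbors of Met; some of these are not reported here. Other genes were named after their values were seen, for their role or because they passed with the Met level as a number. Lists were described without a set test. Alternatives covered weights, scaling, filters, covariates, the replicate block and left-out libraries, and list counts without ADI-PEG20 1 were added after seeing the data.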

Additional observations from a re-analysis of the deposited data

Results flagged for a closer look

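In 118 groups of tumors checked, 1 gene or list in the tumors of 1 class each, 8 had a highest or lowest library far from the others, where chance gives about 5%. Epha2 in Met-high tumors was lowest in ADI-PEG20 3, at 6.77 log2 CPM, against 7.32 in the next library, and Col14a1 in Met-high tumors was highest in the same tumor, at 7.42 against 6.31. The mean of the mature skeletal muscle list was 5.47 in untreated 1, against 2.92 in the next Met-high tumor. The mean of the neutrophil list was 1.12 in ADI-PEG20 plus chloroquine 2, against 1.49 in the next Met-high tumor. Among Met-low tumors, Heg1 was highest in ADI-PEG20 1, at 8.25 against 7.92. Chloroquine 1 was lowest for the MAPK output list, at 4.64 against 5.02, and for the endothelial list, at 4.85 against 5.14. The integrated stress response list was highest in ADI-PEG20 plus chloroquine 3, at 5.51 against 5.13.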

How the results depend on the processing

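The count of 0 genes between the classes was 1 without the treatment covariate or without the trend, 2 with adjustment over all genes including chromosome 6, 9 without the chloroquine group, 13 with library quality weights (of which 3 were among the 48 that passed with Met as a number) and 48 with Met as a number. Leaving out 1 library gave 0 to 13, the 13 without chloroquine 1, and for list members 0 to 1. The genes at p under 0.05 numbered 562 higher with the muscle list as a covariate, and 521 to 1411 higher and 778 to 1348 lower with 1 library left out, the 521 without ADI-PEG20 1. Among list members at p under 0.05, leaving out 1 library gave 11 to 29 for type I interferon, 4 to 22 for interferon gamma and 4 to 10 for MAPK output.

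Alternatives on the continuous Met fit were chosen after seeing the data. Its 48 genes became 9 with the muscle covariate, 48 with voom weights and 12 to 77 with 1 library left out (12 without ADI-PEG20 plus chloroquine 2, 77 without untreated 1, 15 without ADI-PEG20 1, 19 without untreated 3, 20 without chloroquine 1, 22 without chloroquine 2, 24 without ADI-PEG20 2, 20 without ADI-PEG20 plus chloroquine 1). The cause was not tested.

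Same-numbered libraries correlated at -0.04 to 0.20 (8 of 18 pairs over 0.1), with a median of 0.09 against -0.03 for other pairs. By the limit of 0.1 the numbers were not taken to pair the tumors, although 9 of 12 libraries correlated best with their own number. A shared effect of the number was not excluded. With a replicate block, which leaves 5 residual degrees of freedom in place of 7, 0 genes passed between the classes and 0 with Met as a number, 488 were higher and 564 lower at p under 0.05, and 10, 8 and 4 members of the type I interferon, interferon gamma and MAPK output lists had such a p.

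Over 596 pairs of an alternative and 1 of the 24 genes with the smallest p, 0 changed direction and 40 brought an adjusted p under 0.05. The 24 genes were chosen from the same libraries, so the unchanged direction is no independent support. Depth limits Siglec15, Defb28, Naa11 and Olfml1, each under 7 CPM.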

Other observations

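Cancer genes on other chromosomes that are often present in extra copies in tumors were higher in Met-high tumors in 11 of 20 members, with a median of 0.02, near that of all genes. Of these, 5 were higher and 1, Egfr, lower at an unadjusted p under 0.05, and without ADI-PEG20 1 the numbers were 2 and 1. The adaptor protein gene Ywhaz stood at 647, 583, 607, 524 and 619.8 CPM in the Met-high tumors, against 337 to 524 CPM (median 501) in the Met-low tumors, with the lowest Met-high tumor level with the highest Met-low tumor. Mdm2, the ubiquitin ligase that degrades p53, differed by 0.33 (SE 0.11), and the Trp53 target list, in a line without Trp53, had a median of 0.03 with 3 members higher at p under 0.05.

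Inflammatory cytokines were lower in 10 of 16, with 3 lower at p under 0.05, the monocyte attractants Ccl8 at -1.37 (SE 0.41) and Ccl7 at -0.46 (SE 0.15) and the cytokine Lif at -0.66 (SE 0.24). The list's median was -0.02, and -0.32 without ADI-PEG20 1. Il33, an alarm cytokine, lay on the higher side, at 80.1, 32.4, 37.7, 38.5 and 61.7 CPM in the Met-high tumors, against 12.6 to 48.9 CPM (median 31.5) in the Met-low tumors.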
